A study of Mus musculus with 8 samples.

Results

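The genes described here act in the cell cycle, most of them at entry into or passage through mitosis. They are the cyclins Ccna2, Ccnb1, Ccnb2 and Ccnf, the polo-like kinases Plk1 and Plk4, the Aurora kinases Aurka and Aurkb, the NIMA-related kinase Nek2, and the transcription factor Foxm1. They were chosen by name, with earlier results of these data known. Their probe sets are all those of the deposited table that the array's annotation pairs with 1 of these 10 genes alone. That gave 19 of 30506 probe sets, for 9 of the 10 genes, among 13307 genes with a probe set of their own. No probe set paired with Ccnb1 was found, so its expression was not analysed here. One further probe set is annotated to Foxm1 together with other genes and was left out.

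The samples were 4 lines of Cry DKO fibroblasts (genotype Cry1-/- and Cry2-/-) and 4 lines of wild-type (WT) fibroblasts, with 1 array for each independent line. These are primary mouse embryonic fibroblasts, cells taken from embryos and grown without immortalisation, on a background close to C57BL/6J in both genotypes. Cryptochromes, the products of Cry1 and Cry2, are the repressors that close the negative feedback loop of the circadian clock. All cells grew without treatment and without synchronisation, in medium with 10% serum at 3% oxygen, so each value is an average over cells at every stage of the cell cycle. Whether lines came from separate litters, and how often they had been passaged, was not stated in the labels.

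As background, cyclins A2, B1 and B2 activate the kinase CDK1 and are destroyed during mitosis by the anaphase-promoting complex, while cyclin F carries an F-box and serves as a substrate receptor of an SCF ubiquitin ligase. PLK1 and Aurora A act at the centrosome and spindle, Aurora B at the centromere and midzone as part of the chromosomal passenger complex, PLK4 starts centriole duplication, and NEK2 separates centrosomes. Most of these genes are transcribed late in the cell cycle, when B-MYB and then FOXM1 join the MuvB complex. MuvB is also the core of the repressive DREAM complex, and it binds a promoter element called the cell cycle genes homology region, or CHR. CCAAT boxes, bound by NF-Y, are often found next to the CHR.

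RefSeq promoters of assembly GRCm38.p6, each holding 250 bases before and 50 after the annotated transcription start, were found for 7 of the 10 genes (Ccnb1, Ccnb2, Ccnf, Plk1, Plk4, Aurka and Nek2). Those of 6 measured genes are printed because they show how the same short elements are placed in different members. They lie at chr9:70421505-70421804, minus strand (Ccnb2), chr17:24251360-24251659, minus strand (Ccnf), chr7:122159185-122159484, plus strand (Plk1), chr2:172370521-172370820, minus strand (Aurka), chr3:40799701-40800000, plus strand (Plk4) and chr1:191821223-191821522, plus strand (Nek2). Each reads 5′ to 3′ along the gene, and capitals mark the CHR (TTTGAA), its variant (TTTAAA) and CCAAT boxes (CCAAT), searched on both strands. No marked runs overlapped.
Ccnb2: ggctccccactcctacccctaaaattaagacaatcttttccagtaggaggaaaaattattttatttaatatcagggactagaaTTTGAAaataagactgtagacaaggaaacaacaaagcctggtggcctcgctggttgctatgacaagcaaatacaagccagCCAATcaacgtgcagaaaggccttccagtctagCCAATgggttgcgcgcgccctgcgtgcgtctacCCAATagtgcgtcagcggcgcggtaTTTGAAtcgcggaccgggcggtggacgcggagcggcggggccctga
Ccnf: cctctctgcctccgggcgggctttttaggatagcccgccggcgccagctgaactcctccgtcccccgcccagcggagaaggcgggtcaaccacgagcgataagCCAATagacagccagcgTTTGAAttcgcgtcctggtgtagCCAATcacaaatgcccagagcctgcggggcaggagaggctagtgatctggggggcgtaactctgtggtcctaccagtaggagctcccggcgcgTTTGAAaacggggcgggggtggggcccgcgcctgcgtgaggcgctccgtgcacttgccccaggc
Plk1: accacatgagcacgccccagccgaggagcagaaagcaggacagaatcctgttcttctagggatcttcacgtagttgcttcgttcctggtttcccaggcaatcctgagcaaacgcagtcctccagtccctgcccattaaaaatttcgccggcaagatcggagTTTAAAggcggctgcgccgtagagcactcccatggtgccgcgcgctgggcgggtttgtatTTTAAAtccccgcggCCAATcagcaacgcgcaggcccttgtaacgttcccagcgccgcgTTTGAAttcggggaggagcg
Aurka: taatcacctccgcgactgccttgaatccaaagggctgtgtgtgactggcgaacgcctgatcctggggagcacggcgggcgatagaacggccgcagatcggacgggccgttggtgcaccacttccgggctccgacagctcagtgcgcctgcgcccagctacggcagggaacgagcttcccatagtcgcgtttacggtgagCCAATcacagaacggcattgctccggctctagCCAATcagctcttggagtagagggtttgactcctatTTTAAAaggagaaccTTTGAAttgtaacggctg
Plk4: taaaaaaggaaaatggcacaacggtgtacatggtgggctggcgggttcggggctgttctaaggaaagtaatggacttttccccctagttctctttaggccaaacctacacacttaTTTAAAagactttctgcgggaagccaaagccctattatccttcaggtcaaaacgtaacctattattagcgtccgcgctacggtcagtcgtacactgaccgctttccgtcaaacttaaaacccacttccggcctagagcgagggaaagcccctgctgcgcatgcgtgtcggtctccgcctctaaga
Nek2: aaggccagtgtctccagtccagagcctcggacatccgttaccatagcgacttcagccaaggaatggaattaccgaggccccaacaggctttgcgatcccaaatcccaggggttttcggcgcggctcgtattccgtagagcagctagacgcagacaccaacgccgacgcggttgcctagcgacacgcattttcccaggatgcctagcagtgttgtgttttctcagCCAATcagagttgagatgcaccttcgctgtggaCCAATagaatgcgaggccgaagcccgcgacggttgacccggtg

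Ccnb2 held the CHR at bases 5 to 10, counted from the start as base 1, and again at -167 to -162, with 3 CCAAT boxes between bases -87 and -17. Ccnf held it at bases -14 to -9 and again at -130 to -125, that one between a pair of CCAAT boxes. Plk1 held the CHR at bases 31 to 36, and Aurka at bases 33 to 38. Plk4 had only the variant, at bases -135 to -130, with no CCAAT box, and Nek2 had 2 CCAAT boxes but neither form of the CHR. In all, the CHR was in 4 of 7 promoters, against 17.9% of the 32851 promoters of the RefSeq table. CCAAT boxes were in 6 of 7, against 37.4%, and at least 2 of them in 5 of 7, against 11.7%. The canonical E-box CACGTG, the element through which the clock factors CLOCK and ARNTL act, was in 0 of 7 of these windows, against 7.15% of all promoters. The E2F core TTTGGCG was in 0 of 7, against 1.56%. For 7 promoters a count of 0 is near both shares, and only these exact forms were searched, so the counts do not set the members apart. A match of letters is a description of the window and not evidence of binding.

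**Figure D1:**
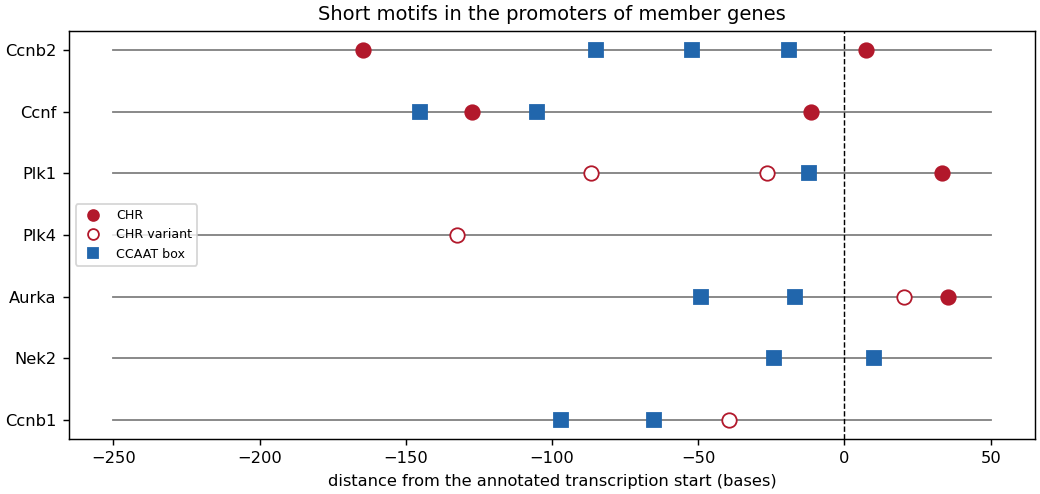
Positions of the CHR (filled circles), its variant (open circles) and CCAAT boxes (squares) in the promoters of 7 member genes, with the distance from the annotated transcription start in bases on the horizontal axis and the start as a dashed line. Ccnb2, Ccnf, Plk1 and Aurka hold the CHR, Plk4 and Ccnb1 hold its variant alone, and Nek2 holds neither.

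Every measured member had a higher signal in Cry DKO than in WT lines. Taking each gene by its probe set of highest mean, all 4 Cry DKO lines lay above all 4 WT lines for 9 of 9 genes, and the differences ran from 0.27 (Foxm1) to 0.55 (Plk4) on the log2 scale, or 1.21-fold to 1.46-fold, with a median of 0.46. The median over the 9515 genes tested was -0.01. In a limma fit over all 16347 probe sets above a floor on dim signals (a mean of 6.05 over the 8 arrays), 7 of the 9 genes passed a Benjamini-Hochberg adjusted p of 0.05 and all 7 rose: Ccna2, Ccnb2, Plk1, Plk4, Aurka, Aurkb and Nek2. Ccnf and Foxm1 did not pass. Over all genes tested, 4.33% passed as higher and 3.45% as lower. Every Cry DKO line lay above every WT line for 7.57% of all tested probe sets, and that share was not taken over genes.

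Of the 19 member probe sets, 16 lay above the floor and were tested, of which 10 rose and 0 fell, where 3.67% of all tested probe sets passed as higher. The lines did not overlap, with Cry DKO higher, for 12 of the 16, against 7.57% of all tested probe sets. In RNA of a whole culture, a larger share of cells near mitosis and more RNA of these genes per cell cannot be told apart. Values below are log2 signals in lines 1 to 4 of each genotype, and differences are Cry DKO minus WT with n = 4 lines each.

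Cyclin A2, the partner of CDK2 in S phase and of CDK1 before mitosis, was measured by 2 probe sets. For Ccna2 (probe set 1417911_at) the signals were 10.12, 10.07, 9.99 and 9.93 in Cry DKO lines, against 9.67, 9.64, 9.52 and 9.50 in WT lines. The lowest Cry DKO line was 0.26 above the highest WT line. Ccna2 rose by 0.44 (SE 0.07, 95% interval 0.30 to 0.59, limma adjusted p = 0.00412), or 1.36-fold. Its other probe set (1417910_at) gave 9.92, 9.70, 9.68 and 9.69 in Cry DKO lines and 9.41, 9.28, 9.31 and 9.03 in WT lines, with a difference of 0.49 (SE 0.09, limma adjusted p = 0.00956). Cry DKO line 1 stood apart from the other Cry DKO lines there, and the groups still did not overlap.

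Cyclin B2, a mitotic partner of CDK1, had 1 probe set. The signals of Ccnb2 (1450920_at) were 9.80, 9.69, 9.65 and 9.65 in Cry DKO lines and 9.33, 9.29, 9.10 and 9.22 in WT lines. The lowest Cry DKO line was 0.32 above the highest WT line. The rise was 0.46 (SE 0.07, 95% interval 0.31 to 0.61, limma adjusted p = 0.00412), or 1.38-fold.

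Cyclin F does not bind a cyclin-dependent kinase and acts through ubiquitin ligation, with the ribonucleotide reductase subunit RRM2 among its substrates. Ccnf (1422513_at) had 7.89, 7.75, 7.72 and 7.89 in Cry DKO lines, against 7.59, 7.44, 6.95 and 7.42 in WT lines. WT line 3 lay well below the other WT lines, and the SD was 0.09 in Cry DKO and 0.28 in WT lines. The difference was 0.46 (SE 0.13, 95% interval 0.18 to 0.74), the same size as for Ccnb2 with a wider interval, and its limma adjusted p was 0.0538. Ccnf passed when 1 probe set per gene was fitted (adjusted p = 0.0466). Without WT line 3 its difference was 0.33. A dimmer Ccnf probe set (1443807_x_at), below the floor and not tested, had 5.42, 5.03, 5.50 and 5.62 in Cry DKO lines and 5.12, 5.21, 4.98 and 4.92 in WT lines, where the groups overlapped.

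The polo-like kinases included the member with the highest rise. For Plk1 (1448191_at) the signals were 9.20, 9.36, 9.13 and 9.18 in Cry DKO lines, against 8.92, 8.76, 8.61 and 8.64 in WT lines. Plk1 rose by 0.49 (SE 0.08, 95% interval 0.30 to 0.67, limma adjusted p = 0.0082), or 1.40-fold, with Cry DKO line 2 and WT line 1 the highest of their groups.

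Plk4 was measured by 3 probe sets above the floor. The brightest (1419838_s_at) gave 9.65, 9.56, 9.53 and 9.66 in Cry DKO lines and 9.22, 9.05, 8.94 and 8.999 in WT lines, a rise of 0.55 (SE 0.07, 95% interval 0.39 to 0.71, limma adjusted p = 0.00294), or 1.46-fold. Another (1426580_at) gave 8.56, 8.21, 8.42 and 8.44 in Cry DKO lines and 7.87, 7.92, 7.65 and 7.73 in WT lines, a rise of 0.62 (SE 0.10, limma adjusted p = 0.00497). Neither of these overlapped between genotypes. The dimmest of the 3 (1452115_a_at) had 7.27, 7.14, 7.61 and 7.62 in Cry DKO lines, where lines 1 and 2 overlapped WT line 1 at 7.28, and its difference of 0.39 (SE 0.14) did not pass (limma adjusted p = 0.113).

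Aurora A matures centrosomes and activates PLK1. Aurka (1424511_at) had 9.18, 9.26, 9.36 and 9.37 in Cry DKO lines and 8.83, 8.87, 8.76 and 8.89 in WT lines. Cry DKO line 1, the highest for 4 of the 9 genes, was the lowest Cry DKO line here, and here alone among the 9. Aurka rose by 0.45 (SE 0.07, 95% interval 0.30 to 0.60, limma adjusted p = 0.0043), or 1.37-fold, with a small spread in WT lines (SD 0.06).

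Aurora B corrects the attachment of kinetochores to microtubules. Aurkb (1424128_x_at) had 8.19, 8.26, 7.97 and 8.02 in Cry DKO lines and 7.80, 7.44, 7.51 and 7.67 in WT lines, and rose by 0.51 (SE 0.10, 95% interval 0.28 to 0.73, limma adjusted p = 0.0174), or 1.42-fold. Without WT line 3 the difference was 0.47 and did not pass (limma adjusted p = 0.0555). The other Aurkb probe set (1451246_s_at) gave 7.33, 7.26, 7.503 and 7.45 in Cry DKO lines and 7.11, 7.09, 6.77 and 6.89 in WT lines. Its rise of 0.42 (SE 0.11, limma adjusted p = 0.0405) lay near the threshold, and the call ended in each of the 8 fits that left out 1 line (adjusted p from 0.0534 to 0.105), where differences ran from 0.36 to 0.47.

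Nek2, whose product phosphorylates the linker between centrosomes, had 4 probe sets that did not all point the same way. The brightest (1437580_s_at) gave 8.46, 8.34, 8.22 and 8.31 in Cry DKO lines and 8.14, 7.70, 7.75 and 7.78 in WT lines, with WT line 1 close to the Cry DKO lines. It rose by 0.49 (SE 0.10, 95% interval 0.26 to 0.72, limma adjusted p = 0.0208), or 1.41-fold, and the call ended without WT line 2, 3 or 4 (adjusted p up to 0.0629) while the difference stayed between 0.45 and 0.59 in all 8 fits that left out 1 line. A dimmer probe set (1417299_at) had 7.00, 6.31, 7.14 and 7.06 in Cry DKO lines against 6.37, 6.79, 6.74 and 6.49 in WT lines, where the low Cry DKO line 2 made the groups overlap, and its difference of 0.28 did not pass (SE 0.18, limma adjusted p = 0.393). Without that line the difference was 0.47 and did not pass either (limma adjusted p = 0.076).

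The 2 remaining Nek2 probe sets lay far below the floor. One (1443999_at) had 4.47, 4.80, 4.55 and 4.50 in Cry DKO lines and 4.63, 2.504, 4.09 and 3.58 in WT lines. Its mean difference was 0.88, and WT line 1 alone lay among the Cry DKO lines. For the other (1437579_at) the signals were 1.14, 3.13, 2.62 and 3.79 in Cry DKO lines and 3.26, 3.67, 2.82 and 3.995 in WT lines, with a mean difference of -0.77, the sole negative difference among the 19 member probe sets. The genotypes overlapped in both probe sets, and neither was tested.

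Foxm1, the activator of many late cell cycle genes, had the smallest difference of the 9. It also had the lowest signal of the 9, with a mean of 7.14 over the 8 arrays for its brightest probe set. Whether the low signal bears on the size of its difference was not tested. The brightest of its 3 probe sets (1448834_at) gave 7.33, 7.29, 7.36 and 7.11 in Cry DKO lines and 6.94, 7.04, 6.98 and 7.06 in WT lines. The groups were separated by 0.05 only, with Cry DKO line 4 nearest to the WT lines, and the difference of 0.27 (SE 0.09, 95% interval 0.06 to 0.47) did not pass (limma adjusted p = 0.111). The others gave similar sizes: 0.31 (SE 0.14, limma adjusted p = 0.209) for 1448833_at, and 0.26 (SE 0.11, limma adjusted p = 0.209) for 1417748_x_at. In 1448833_at Cry DKO line 1, at 6.74, lay among the WT lines (6.70 to 6.90), and without that line the difference was 0.44 and passed (limma adjusted p = 0.048). In 1417748_x_at Cry DKO line 4, at 6.69, lay between WT lines (6.53 to 6.71). Whether Foxm1 changed less than the kinases and cyclins was not tested, and its 95% interval overlaps those of the other 8 genes.

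**Figure D2:**
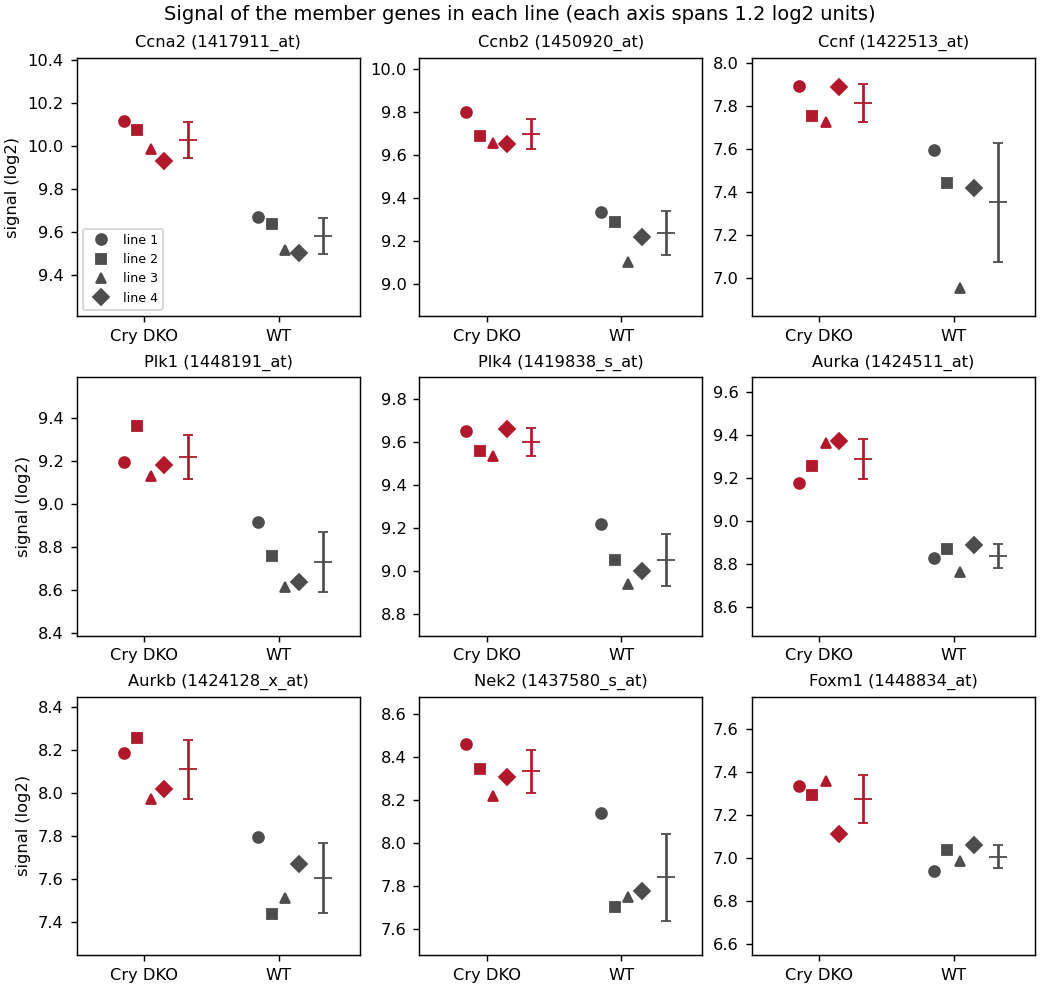
Log2 signal of the 9 measured member genes, each by its probe set of highest mean, in 4 Cry DKO lines (left, red) and 4 WT lines (right, grey). Symbols mark line numbers, bars give mean and SD (n = 4), and each vertical axis spans the same range of log2 units. No WT line reaches the lowest Cry DKO line in any panel, and the gap is narrowest for Foxm1 (0.05).

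**Figure D3:**
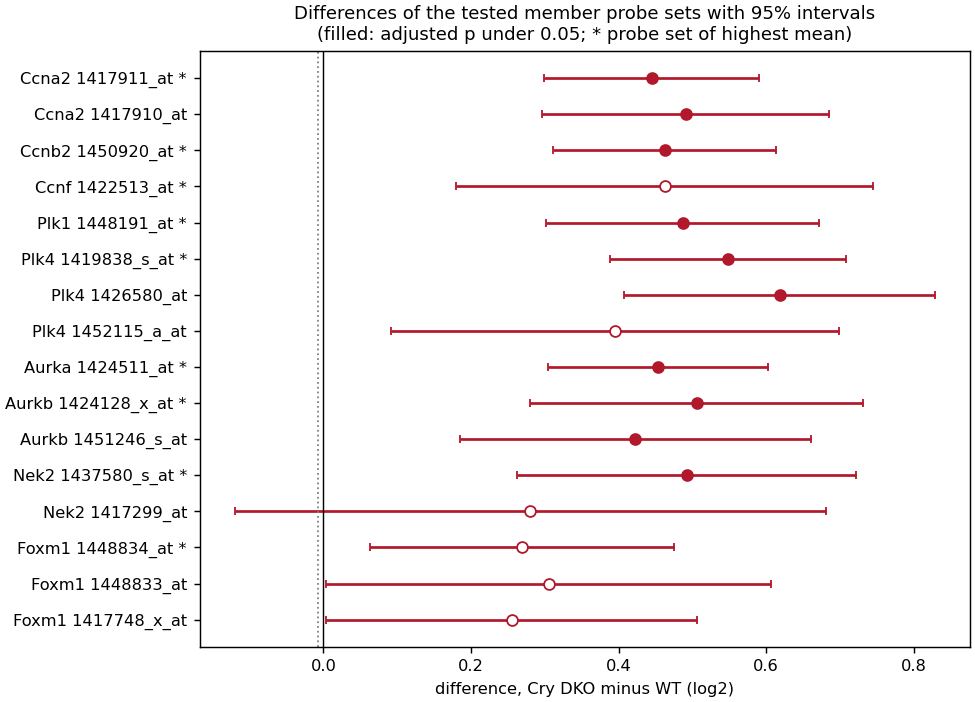
Cry DKO minus WT differences (log2) of the 16 tested member probe sets with 95% intervals from limma. Filled points passed an adjusted p of 0.05, asterisks mark the probe set of highest mean of each gene, the solid line is 0 and the dotted line is the median of all tested probe sets (-0.01). The estimates run from 0.26 to 0.62, and 10 of the 16 passed.

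Within a genotype, some lines were high or low for several members at once. Averaged over the 9 genes, the signals were 8.87, 8.84, 8.77 and 8.79 in Cry DKO lines and 8.49, 8.36, 8.24 and 8.35 in WT lines. WT line 1 was the highest WT line for 7 of the 9 genes, while WT line 3 lay below the WT mean for all 9 and was the lowest for 5. In Cry DKO lines the member mean had an SD of 0.04, against 0.10 in WT lines, and line 1 was the highest for 4 genes and line 3 the lowest for 5. The SD was smaller in Cry DKO than in WT lines for 7 of the 9 genes (Aurka and Foxm1 were the exceptions, and Ccna2 was nearly equal), where 41.9% of all tested genes had the smaller SD in Cry DKO lines. The 9 genes were measured in the same lines and are not independent counts, and the SDs were not compared by a test.

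**Figure D4:**
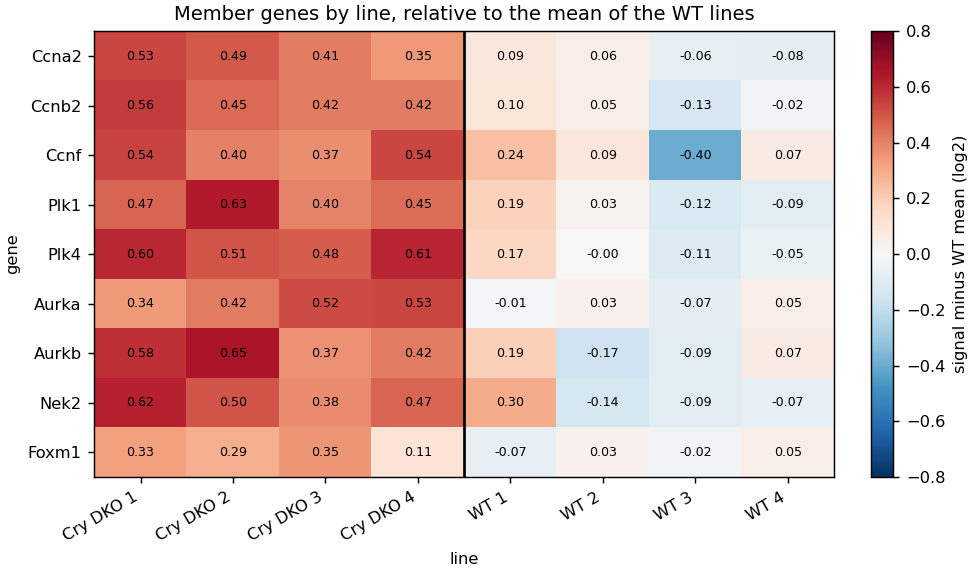
Signal of each member gene in each line minus the mean of the 4 WT lines (log2), with Cry DKO lines on the left and WT lines on the right of the black line. Cry DKO values run from 0.11 (Foxm1, line 4) to 0.65 (Aurkb, line 2), and the lowest WT value is -0.40 (Ccnf, line 3).

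Other RNA differed between the same lines. Markers of macrophages and blood cells were above the floor for 19 of 19 genes with a probe set. Of these 10 rose and 0 fell, with a median difference of 0.78, where 4.33% of all tested genes rose. The mean of these markers was 9.76, 9.34, 8.80 and 9.09 in Cry DKO lines and 8.78, 8.15, 8.45 and 8.68 in WT lines. Lyz2, lysozyme, rose by 0.83 (limma adjusted p = 0.00532) and Csf1r, the receptor for the macrophage growth factor, by 0.84 (limma adjusted p = 0.0216). With the marker mean as a covariate, which itself differs between genotypes, the differences of the 9 members ran from 0.25 to 0.56 with SEs of 0.10 to 0.20. Aurkb and Nek2 were then both at 0.25, against 0.51 and 0.49 without the covariate, while Aurka was at 0.56, against 0.45. None of the 9 then passed (limma adjusted p from 0.08 to 0.486, with an unadjusted p under 0.05 for 5 of them), and 23 of the 16347 probe sets did. From highest to lowest, Cry DKO lines ran 1, 2, 4 and 3 both in the marker mean and in the member mean. WT line 1 was the highest WT line in both, and the other WT lines differed in order. Cry DKO line 3 and WT line 1, a pair named after the values were seen, had nearly equal marker means (8.80 and 8.78). Their means over the 9 members were 8.77 and 8.49, and their means of Y-linked genes also differed (7.94 and 2.86). The markers' part in the member differences was not tested beyond these values. The mean of the fibroblast markers was 12.6 to 12.8 in Cry DKO lines and 12.8 to 13.0 in WT lines. Of 12 with a probe set 9 were tested, and 0 passed in limma. All 9 had negative differences (-0.37 to -0.06, median -0.15), with an unadjusted limma p under 0.05 for 2 (Col1a1 at 0.0167 and Pdgfrb at 0.0153). Markers of epithelium, skeletal muscle and neural cells were mostly below the floor, with 1, 1 and 2 tested: Krt18 at -0.30, Des at -0.38, Nes at -0.08 and Tubb3 at 0.01, none of which passed in limma (unadjusted p = 0.0263, 0.0222, 0.360 and 0.931).

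The mean of 3 Y-linked genes was 2.66 and 2.96 in Cry DKO lines 1 and 4 and 2.86 in WT line 1, and between 7.74 and 7.94 in the other 5 lines. Among lines with the higher Y-linked signal, the member mean was 8.81 in Cry DKO and 8.32 in WT lines, a difference of 0.49. Among those with the lower signal it was 8.83 in 2 Cry DKO lines and 8.49 in 1 WT line, a difference of 0.34. With the Y-linked mean as a covariate the same number of member genes passed, 7 of 9. Per2, a clock gene held down by cryptochromes, averaged 8.37 in Cry DKO and 5.53 in WT lines, where the WT mean lies under the floor for dim signals, and rose with a fitted difference of 2.85 (limma adjusted p = 2.6e-06), while Cry1 and Cry2 had differences of -0.50 and -0.34, which missed the threshold (limma adjusted p = 0.181 and 0.143). Whether their probes lie in the deleted parts was not stated in the labels, so these 2 genes do not check the genotype. None of the members lies within 10 Mb of either targeted gene, and Aurka, on the same chromosome as Cry2, lies 80 Mb away.

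The genes around the members in the mitotic pathway were counted by list, each gene by its probe set of highest mean and with the members left out. Of 20 genes reported as FOXM1 targets 14 rose and 0 fell, with a median difference of 0.40. Top2a, a topoisomerase that untangles sister chromatids, rose by 0.56 (SE 0.05, limma adjusted p = 0.000316) and Birc5, the survivin subunit of the chromosomal passenger complex, by 0.57 (limma adjusted p = 0.00264). The centromere genes Cenpe and Cenpa rose by 0.59 and 0.50. Of 20 tested MuvB, DREAM, E2F and NF-Y genes 2 rose and 0 fell (median 0.13), namely the DREAM pocket protein gene Rbl1 by 0.39 (limma adjusted p = 0.0228) and the CHR-binding MuvB subunit gene Lin54 by 0.41 (limma adjusted p = 0.0437). E2f6 and E2f5 stood at -0.23 and 0.40 without passing. Over all tested genes 4.33% rose, and whether these 2 lists differ from each other was not tested.

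Cdk1, the kinase that the mitotic cyclins activate, rose by 0.41 (SE 0.06, limma adjusted p = 0.00314). Among the 18 tested genes of Cdk1 and its direct regulators 5 rose and 1 fell (median 0.13), where 4.33% of all tested genes rose. The rises included those of Wee1, the inhibitory kinase of CDK1 and a known clock output gene, by 0.48 (limma adjusted p = 0.00737), of the phosphatase gene Cdkn3 by 0.50, and of Cks2, a small subunit of CDK complexes, by 0.31. The gene that fell was the CDK inhibitor Cdkn1a, named here after its value was seen (-0.42, limma adjusted p = 0.0358). The list held both activators and inhibitors of CDK1.

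The share of all tested genes that rose, 4.33%, is the background for the 3 lists that follow. Of 19 tested cofactors of Aurora and polo-like kinases and centriole proteins, 7 rose and 0 fell (median 0.30). The other subunits of the chromosomal passenger complex also rose: Incenp by 0.50 (limma adjusted p = 0.0037), Cdca8, borealin, by 0.56 (limma adjusted p = 0.00434) and Birc5 by 0.57, and the kinase gene Bub1, which recruits that complex to centromeres, rose by 0.54 (limma adjusted p = 0.00135). The anaphase-promoting complex, which destroys the mitotic cyclins and Aurora kinases, was listed together with its activators, ubiquitin-conjugating enzymes and inhibitors. In that list 4 of 24 genes rose and 0 fell (median 0.07). These 4 were not core subunits: Cdc20, the activator, rose by 0.38 (limma adjusted p = 0.00678), Ube2c, its ubiquitin-conjugating enzyme, by 0.43, Fbxo5, the inhibitor EMI1, by 0.37, and the spindle checkpoint gene Mad2l1 by 0.57. Of 10 SCF partners and substrates linked to Ccnf and Plk4, 4 rose and 0 fell, among them the cyclin F substrates Rrm2 (0.51, limma adjusted p = 0.00225), Ccp110 (0.47), a centriole cap protein gene, Slbp (0.22) and Nusap1 (0.53).

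Relatives of the members from the same gene families gave 1 rise and 0 falls among 30 tested genes (median -0.01). That count is near the share of all tested genes that rose, 4.33%. The gene that rose was Ccne2, cyclin E2 of the G1 to S transition, by 0.66 (limma adjusted p = 0.012). Ccng1, cyclin G1, had a difference of -0.17 (limma adjusted p = 0.0507), Ccnd1 one of 0.32 (0.161) and Ccnt1, a cyclin of transcription, one of -0.15 (0.238). The polo-like kinases Plk2 and Plk3, named here after their values were seen, had differences of -0.06 (SE 0.07) and -0.08 (SE 0.09). For Plk2 the 95% interval ran from -0.22 to 0.10, below that of Plk4 (0.39 to 0.71).

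Among 15 genes of quiescence and arrest 0 rose and 6 fell (median -0.22), where 3.45% of all tested genes fell. The inhibitor genes Cdkn1c and Cdkn2b had the smallest p, with differences of -1.17 (limma adjusted p = 0.000701) and -0.52 (limma adjusted p = 0.00294), followed by Btg2 (-0.39) and Gas6 (-0.61). Of 20 genes of S phase and proliferation 18 rose and 0 fell (median 0.42), where 4.33% of all tested genes rose. Mki67, the proliferation marker Ki-67, rose by 0.53 (limma adjusted p = 0.00314), Tk1, thymidine kinase, by 0.57, Rrm2 by 0.51 and Pcna, the sliding clamp, by 0.31. The median of the mitotic members (0.46) and that of the S phase list (0.42) lay close together, and the difference between them was not tested. Several genes stand in more than 1 list.

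**Figure D5:**
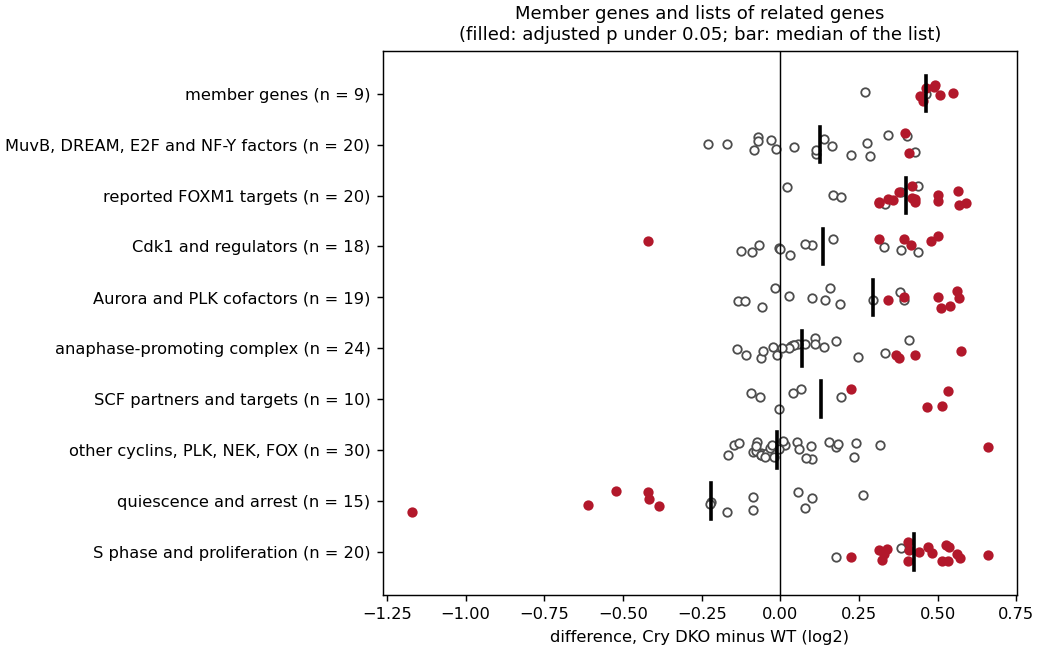
Cry DKO minus WT differences (log2) of the 9 member genes and of the genes in 9 related lists, 1 point per gene at its probe set of highest mean, filled where the adjusted p was under 0.05, with a black bar at each median. Points are spread vertically at random. The members, the reported FOXM1 targets and the S phase genes have medians of 0.46, 0.40 and 0.42, and the anaphase-promoting complex list and the family relatives have medians of 0.07 and -0.01.

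Genes with a pattern over the 8 lines most like that of the members were ranked by the root mean square distance between centred profiles, a description with no test. The 8 nearest non-members were Cenpf, Tmpo, Ube2c, Cdk1, Prc1, Piga, Fen1 and Wdhd1, at distances of 0.05 to 0.06 on the log2 scale, where the median of all 9515 genes was 0.28. Cenpf is a kinetochore protein gene, Prc1 a bundler of the spindle midzone, Tmpo encodes lamina-associated proteins, Fen1 a nuclease of DNA replication and Wdhd1 a replisome protein, while Piga encodes an enzyme of GPI anchor synthesis. Cenpf had the smallest distance, 0.05, with 8.66 in Cry DKO and 8.23 in WT lines on average. Among the members themselves Ccnb2 lay nearest to the common profile (0.03), and Foxm1 (0.14) and Ccnf (0.12) lay farthest. That profile is the mean of the members, each included, so their distances do not compare with those of non-members. A distance also grows where the size of a difference departs from that of the profile.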

How the data were processed

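Total RNA of 8 fibroblast lines was hybridised to Affymetrix 3' arrays, from biotin-labelled cRNA made from 5 ug of RNA, per the labels' protocols. The deposited values are taken as log2 signals: the base is inferred from their range (0.0675 to 14.3), and every fold rests on it. Per the submitters' processing notes GCOS was used, with no version. How probes were summarised and normalised was not stated in the labels. Array medians (6.78 to 6.79) nearly coincide, so values were used as deposited, and a shift shared by all genes would not be visible. The number of arrays limits the precision (median within-genotype SD 0.14).

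The platform annotation paired 24838 probe sets with 1 gene, 658 with several and 4949 with none, beside 61 controls, and 24757 were matched to GRCm38.p6 for symbols. Probe sets with 1 gene and a mean at or above the 40th percentile (6.05) were fitted with limma 3.58.1 in R 4.3.3 (intensity trend, Benjamini-Hochberg over 16347 probe sets). The probe set with the highest mean stands for its gene. Error is the spread between independent lines. The script was tested on simulated data. Alternatives were another normalisation, other floors, 1 probe set per gene, other empirical Bayes settings, array weights, a threshold of 0.01, covariates, a replicate block and leaving out each line; the lines grouped by Y-linked signal were added after seeing the data. Members and lists were chosen with earlier results of these data known. Beside the members, up to 4 genes of smallest p were named from each list with a called gene and up to 2 from others, with the 8 nearest profiles and a few markers.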

Additional observations from a re-analysis of the deposited data

Results flagged for a closer look

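Of 38 groups of 4 lines (19 member probe sets in both genotypes), 2 held a line far from the other 3, and chance gives about 1 in 20 such groups. Ccna2 probe set 1417910_at was at 9.92 in Cry DKO line 1, against 9.68 to 9.70 in the other Cry DKO lines. Nek2 probe set 1437580_s_at was at 8.14 in WT line 1, against 7.70 to 7.78 in the other WT lines. Neither line ended a call when left out: the differences were then within 0.42 to 0.54 for the Ccna2 probe set and within 0.45 to 0.59 for the Nek2 probe set over all 8 fits that left out 1 line, and the Nek2 call ended without WT line 2, 3 or 4. WT line 1 was also the WT line with the lowest Y-linked mean (2.86) and the highest mean of macrophage markers (8.78).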

How the results depend on the processing

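Member differences kept their sign in all 291 values from the alternatives run on the 16 tested probe sets, and 255 also kept their side of the threshold, while 33 lost the call and 3 gained it. The lowest difference among the representative probe sets was 0.24 (without Cry DKO line 3). With no moderation of the variance 393 probe sets passed in place of 1113, of which 5 belonged to the members, with 4 member genes and 26 genes of the related lists in place of 51. At an adjusted p of 0.01 the counts were 275 probe sets and 24 related genes, with 5 member genes. With the macrophage marker mean as covariate 23 probe sets, 0 member probe sets, 0 member genes and 0 related genes passed in limma, while the median member difference was 0.37 (median of the genes' SEs 0.13, against 0.08 without it); the marker part in the result was not tested. With the Y-linked mean as covariate 684 probe sets passed. Leaving out 1 line gave 481 to 862 probe sets and 29 to 42 related genes (481, 579 and 600 probe sets without WT lines 3, 1 and 2), lowest without WT line 3, and 5 to 7 member genes; fewer samples also enter these fits. Replicate numbers are not stated to mark shared batches, and deviations of same-numbered lines correlated by 0.02 to 0.29, with 6 of 8 lines closest to their own number. With the replicate block 8 member genes passed, Ccnf among them (adjusted p = 0.0328), while Aurkb probe set 1451246_s_at lost its call (adjusted p = 0.0684). The 3 member probe sets below the floor entered only the fit without a floor.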
